A study of Saccharomyces cerevisiae with 26 samples.

Results

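The RNA response of wild-type budding yeast (WT) to mating pheromone was taken from the 4 WT RNA libraries of a series of 26 samples in 13 groups. The asynchronous group held 2 libraries of Saccharomyces cerevisiae cells growing in YEPD, a rich glucose medium, at room temperature. The G1-arrested group held 2 libraries of the same WT cells after 4 h in α-factor, the peptide pheromone of α cells. No allele is named for WT, no other agent is named for either group, and the series compares WT with strains altered in Forkhead genes; the 4 RNA libraries of the strain labelled fkh1Δfkh2Δ2C and the 8 Rpb3 libraries of both strains are used below only beside the WT values. Total RNA was depleted of ribosomal RNA before strand-specific sequencing. Each gene's value was the mean of the authors' normalised signal over the 50 bp bins inside the gene on its own strand, called RNA signal here. Of 6002 protein-coding genes, 5999 could be placed on the bins and 5399 entered the test.

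An a cell senses α-factor with the receptor Ste2, and a G protein passes the signal to a MAP kinase cascade that ends in the kinases Fus3 and Kss1 and the transcription factor Ste12. Ste12 drives genes for agglutination, polarised growth, cell fusion and nuclear fusion, while the inhibitor Far1 holds the G1 cyclin kinases inactive. An arrested culture therefore stops before the periodic gene waves of the dividing cell, which run from the G1 cyclins and histones through the mitotic CLB2 cluster, a target set of the Forkhead factor Fkh2, to the daughter-specific genes that separate mother and daughter.

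Depth is not given in the files. Between 76.3% and 76.6% of bins were at 0 in the asynchronous columns and between 80.8% and 83.2% in the arrested columns. The highest bin was 7823.69 in all 14 RNA columns used and the value at rank 1000 lay between 29.81 and 30.75, so the deposited libraries share nearly the same set of sorted values. Genes of the Watson strand had 2 asynchronous libraries. Genes of the Crick strand had only replicate 2, because the forward column of replicate 1 could not be told from another column of the same name. The log2 signals of Watson genes correlated at r = 0.945 between the asynchronous libraries, 0.911 between the arrested libraries and 0.839 to 0.875 across the groups, as a description over 2715 genes. The labels do not say that replicates were separate cultures, so the p-values measure only the spread between these libraries, which may be technical. In bulk RNA, fewer cells of a type and less RNA per cell cannot be told apart.

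The mating type of the cells was read from its markers. MFA1, which encodes the a-factor precursor, had an RNA signal of 5.33 and 7.52 in the asynchronous libraries. STE3, the receptor of α cells, was at 0.0303 in the asynchronous library and at 0 in both arrested libraries, and MF(ALPHA)1, an α-factor gene, was at 0.088, 0.088, 0 and 0. SAG1, the α-agglutinin gene, was the exception among the α-cell markers, with 0.353 in the asynchronous library and 2.13 and 0.871 in the arrested libraries (limma adjusted p = 0.187). BAR1, which encodes the protease that a cells secrete to destroy α-factor, was at 0 in all 8 RNA libraries and all 8 Rpb3 libraries of both strains. In those Rpb3 libraries 5.4% to 5.5% of all bins were at 0. The labels name no change at BAR1, and why it has no signal was not tested. Its neighbours SNL1 and YIL014C-A were likewise at 0 in all 4 WT RNA libraries.

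Arrest changed 117 of 5399 genes, with 46 genes rising (0.852% of those tested) and 71 falling (1.32%) at a limma adjusted p below 0.05. The 12 largest rises included the mating genes FIG2, PRM1, FIG1, PRM3, PRM8, AGA1 and PRM2, and the 12 largest falls included the histone genes HTB2 and HTA2, the separation genes EGT2, CTS1, DSE4 and DSE2, and the mitotic cyclin gene CLB2. Of the genes called, 20 of the 46 rises and 40 of the 71 falls belonged to none of the gene lists described below. Among the genes that rose, the change ran from 1.32 to 6.66 on the log2 scale, and among those that fell from -1.16 to -5.12. Log2 changes are of the signal plus a pseudocount of 0.0643, which understates the change of low genes. The median gene changed by -0.18, and of the 5399 genes 3265 had a negative change and 2133 a positive one. In all 117 genes the arrested and asynchronous libraries did not overlap. Over all genes tested, both arrested libraries lay above the asynchronous ones in 1321 genes (24.5%) and below in 2198 (40.7%). Watson genes gave 32 rises (1.18%) and 57 falls (2.1%), and Crick genes, with 1 asynchronous library, gave 14 rises (0.522%) and 14 falls (0.522%). Before adjustment, 996 genes (18.4%) had a p below 0.05. These counts rested on every library and on the spread shared with the fkh1Δfkh2Δ2C libraries. Without arrested replicate 1 there were 6 rises and 18 falls, and without arrested replicate 2 there were 3 and 8. Without asynchronous replicate 1 there were 22 and 20, without asynchronous replicate 2 (Watson genes only) 28 and 22, and with the WT libraries fitted alone 5 and 0. In each of these fits, each of the 117 genes that was still tested kept its direction.

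**Figure D1:**
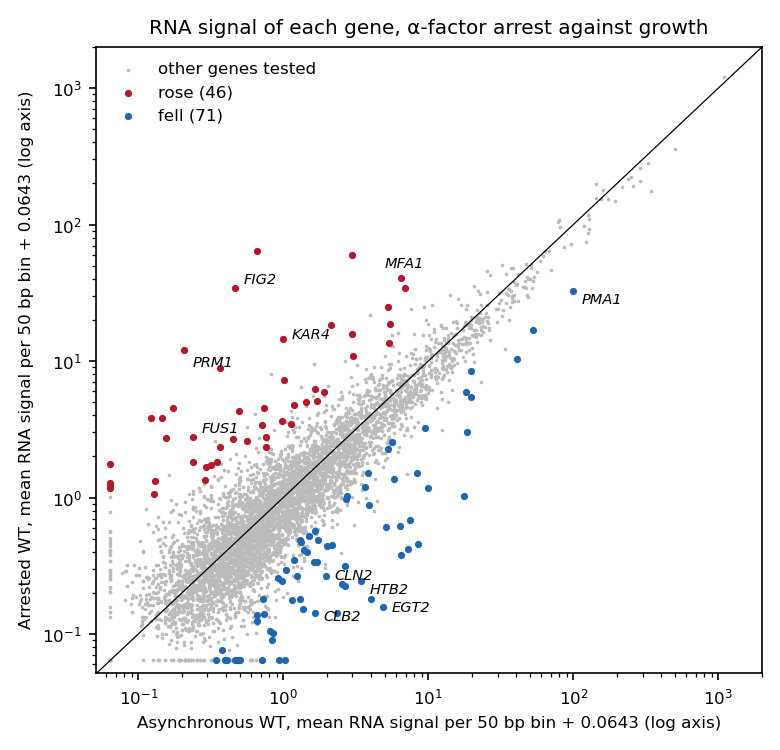
Mean RNA signal of each gene tested in arrested WT (vertical, 2 libraries) against asynchronous WT (horizontal, 2 libraries for Watson genes and 1 for Crick genes), both plus 0.0643 on log axes, with the diagonal marking equal signal. Red points are the 46 genes that rose and blue points the 71 that fell; the red points include FIG2, with means of 0.399 and 34.1, and the blue points include genes from PMA1, among the highest signals, to genes at 0 in arrest along the lower edge.

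Within the signalling cascade, the receptor, a MAP kinase and a Ste12 inhibitor rose, while most of the pathway did not pass the test. Of 18 measured members of the cascade, 3 rose and 0 fell, with a median change of 0.06. Over all genes tested 0.852% rose and 1.32% fell, which is the base for the RNA counts of each list below. FUS3, the mating MAP kinase gene, had an RNA signal of 1.56 and 1.62 in the asynchronous libraries and 5.97 and 6.32 in the arrested libraries. That is a 3.86-fold higher mean and a log2 change of 1.91 ± 0.235 (SE, limma adjusted p = 0.00632). STE2, the α-factor receptor, went from 5.48 and 5.12 to 16 and 11.1 (log2 1.32 ± 0.230, limma adjusted p = 0.0271). DIG2, which encodes an inhibitor of Ste12, went from 0.231 and 0.278 to 1.47 and 1.85 (log2 2.43 ± 0.350, limma adjusted p = 0.0112). In all 3 genes the arrested libraries lay clear of the asynchronous ones, as in every gene called. GPA1, the G protein α subunit, measured 1.12 in asynchronous cells and 3.97 and 1.99 in arrest (log2 1.28, limma adjusted p = 0.208). STE12 itself measured 0.795 and 0.922 against 0.619 and 0.873, with the groups overlapping (log2 -0.20, limma adjusted p = 0.776). STE5, the scaffold of the cascade, measured 0.567 and 0.417 against 0.244 and 0.251 (log2 -0.82, limma adjusted p = 0.252).

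Among genes that dampen the signal or arrest the cycle, 2 of 12 measured members rose and 0 fell, with a median change of 0.33. SST2 encodes the GTPase activator that turns the G protein off. Its signal was 0.677 in the asynchronous library and 5.31 and 3.61 in the arrested libraries (log2 2.58 ± 0.410, limma adjusted p = 0.0347). ASG7, an a-specific regulator of the G protein β subunit, went from 0.434 to 4.93 and 3.61 (log2 3.10 ± 0.398, limma adjusted p = 0.0155). Both were far above their asynchronous value in each arrested library. FAR1, the cyclin kinase inhibitor of the arrest, measured 4.19 in the asynchronous library and 8.38 and 9.60 in the arrested libraries (log2 1.09, limma adjusted p = 0.123). AFR1, needed for receptor regulation and projection shape, measured 0.410 against 1.92 and 2.10 (log2 2.13, limma adjusted p = 0.0907). FAR3, FAR7, FAR8, FAR10 and FAR11, which act together in keeping cells arrested, gave no call: FAR3 was too low to test and the others ran from -1.44 to 0.38.

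Cell fusion and polarised shape held the most rises of any gene list. Of 20 measured members 8 rose and 0 fell, with a median change of 1.60. The lists were chosen with earlier results of these data known, so this ranking is a description and not a test. FIG2, a cell wall adhesin of mating cells, had an RNA signal of 0.277 and 0.520 in the asynchronous libraries and 37.3 and 30.9 in the arrested libraries. Its mean was 85.5-fold higher (log2 6.25 ± 0.516, limma adjusted p = 0.00114). PRM1, which acts in fusing the plasma membranes, went from 0.088 and 0.198 to 10.3 and 13.5 (83.2-fold, log2 5.89 ± 0.369, limma adjusted p = 0.00027). FIG1, a membrane protein of pheromone-dependent calcium entry and fusion, went from 0 and 0.118 to 3.82 and 3.72 (log2 5.15 ± 0.578, limma adjusted p = 0.0038). These asynchronous values were at or close to 0, so the folds rest on small denominators, while the arrested libraries lay close to each other. PRM8, a membrane protein, went from 0.313 and 0.291 to 7.73 and 9.93 (log2 4.59 ± 0.401, limma adjusted p = 0.00114). PRM2, a membrane protein read from the Crick strand, went from 0.0903 to 2.09 and 3.28 (log2 4.12 ± 0.463, limma adjusted p = 0.0097). FUS1, the membrane protein that marks the fusion site, went from 0.198 and 0.154 to 2.90 and 2.54 (log2 3.54 ± 0.448, limma adjusted p = 0.00718). FUS2 and RVS161, whose products bind each other at the fusion site, rose by 3.13 and 1.84 on the log2 scale (limma adjusted p = 0.0171 and 0.0292). The members of this list that run the general polarity machine behaved otherwise. SPA2 measured 0.750 and 0.860 against 0.424 and 0.220, PEA2 0.678 against 0.194 and 0, and the formin gene BNI1 1.39 against 1.31 and 1.05, and none of these passed the test. PRM7 and PRM9 measured 0.453 against 0.347 and 0.131 and 0.244 and 0.216 against 0.124 and 0, again without a call.

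**Figure D2:**
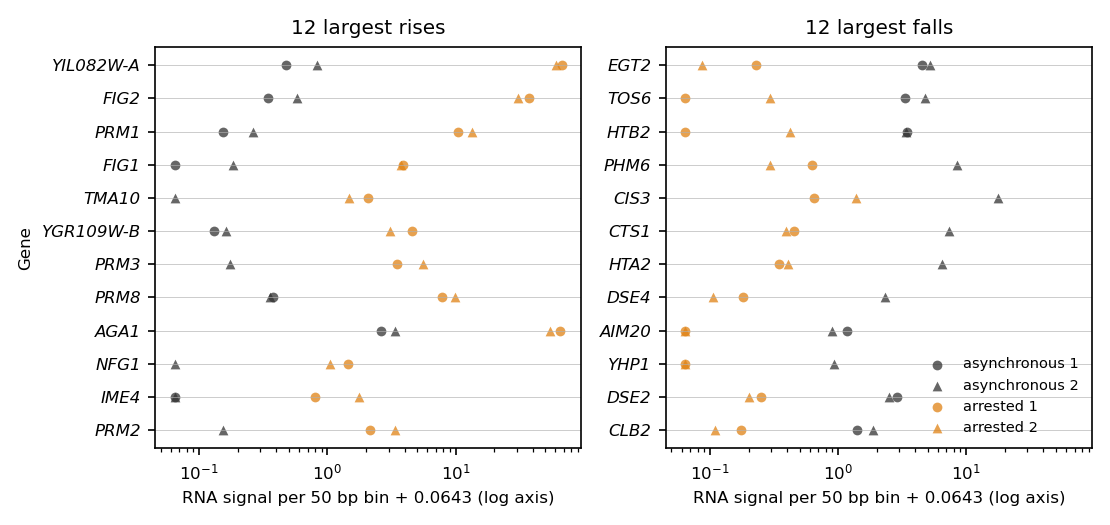
RNA signal plus 0.0643 on a log axis for the 12 genes with the largest log2 rise (left) and the 12 with the largest fall (right), 1 point per WT library. Grey circles and triangles are asynchronous replicates 1 and 2, and orange ones are arrested replicates 1 and 2. Genes without a grey circle lie on the Crick strand. No orange point overlaps the grey points of its gene, which held for every gene called.

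For nuclear fusion, 3 of 11 measured members rose, 0 fell and the median change was -0.01. KAR4 encodes a partner of Ste12 at the genes of nuclear fusion. Its signal was 0.984 and 0.891 in the asynchronous libraries and 13.8 and 15.2 in the arrested libraries, a 15.5-fold higher mean (log2 3.86 ± 0.236, limma adjusted p = 0.00027). PRM3, a nuclear envelope protein of membrane fusion, went from 0.110 to 3.43 and 5.53 (log2 4.66 ± 0.548, limma adjusted p = 0.0112). KAR5, another nuclear membrane fusion protein, went from 0.330 and 0.235 to 1.58 and 1.97 (log2 2.41 ± 0.310, limma adjusted p = 0.00738). All 3 were higher in both arrested libraries with no overlap, as was every gene called as rising. KAR3, the motor that draws the nuclei together, measured 0.254 against 0.870 and 0.915 (log2 1.59, limma adjusted p = 0.135). CIK1, its partner, measured 0.940 and 0.659 against 2.27 and 3.83 (log2 1.82, limma adjusted p = 0.0596). KAR2, JEM1 and SEC63, whose products also serve protein entry into the endoplasmic reticulum, had changes of -0.66, -0.05 and -0.01.

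KAR4 and CIK1 are known to be transcribed from another start in pheromone, which yields a shorter product, so their signal was read bin by bin. In KAR4 the arrested libraries held no signal in the 250 bp before the annotated start and 1.12 and 0 in the bin 47 bp after it, where the asynchronous libraries held 0 and 2.12. At 97 bp the arrested signal stood at 15.0 and 14.1, and it stayed high to the end of the gene. The asynchronous signal of KAR4 was low along the whole gene, averaging 1.09 and 0.600 over the first 250 bp and 1.07 and 1.10 from 500 bp to the end. In CIK1 the signal was uneven. Over the first 250 bp the arrested libraries averaged 2.28 and 2.53 and the asynchronous libraries 0.176 and 0.352. From 250 to 500 bp the arrested libraries averaged 0.672 and 3.61 and the asynchronous libraries 0.878 and 0.176, so the groups overlapped there. From 500 bp to the end of CIK1 the arrested libraries averaged 2.58 and 4.13 and the asynchronous libraries 1.10 and 0.810. The bins are too coarse, and the asynchronous signal of both genes too low, to compare start sites between the groups.

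**Figure D3:**
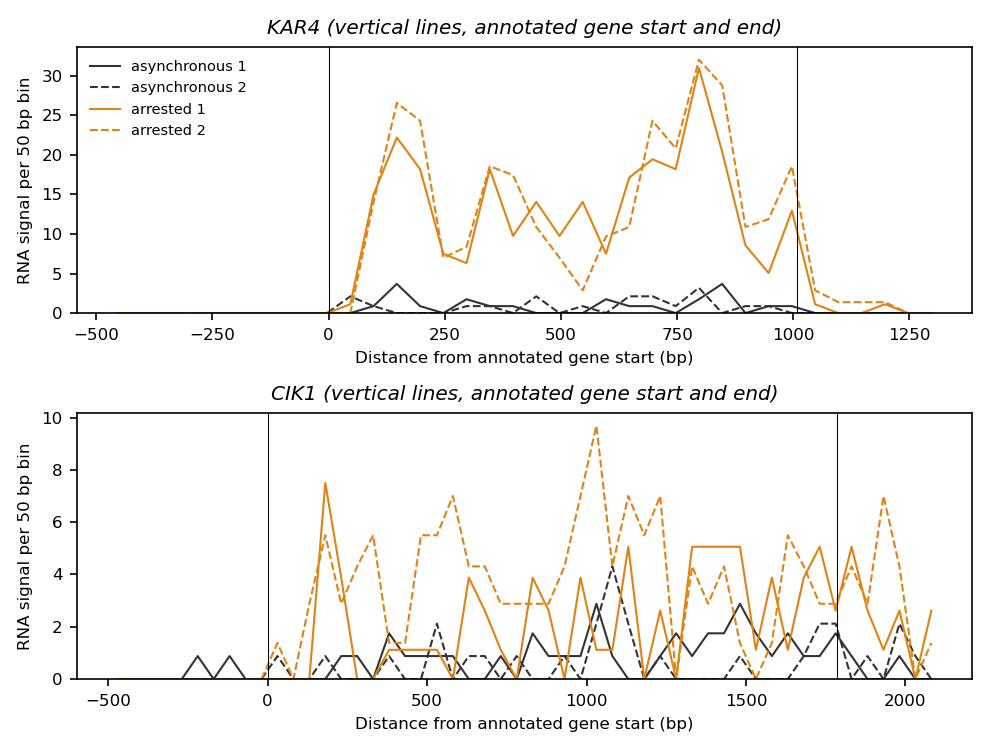
RNA signal per 50 bp bin (vertical) along KAR4 (top) and CIK1 (bottom) by distance from the annotated gene start in bp (horizontal), 1 line per WT library: grey asynchronous, orange arrested, solid replicate 1, dashed replicate 2. Vertical lines mark the annotated start and end; in KAR4 the orange lines stand at 1.12 and 0 in the bin at 47 bp, where 1 grey line stands at 2.12, and lie above both grey lines from 97 bp to the gene's end.

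Of 11 measured a-cell genes, 5 rose and 0 fell, and the median was 1.01. Against the asynchronous libraries that median was 1.39 for arrested replicate 1 and 0.68 for arrested replicate 2. AGA1, the anchor subunit of a-agglutinin, had an RNA signal of 2.57 and 3.30 in the asynchronous libraries and 65.4 and 54.5 in the arrested libraries, 20.4-fold higher on the mean (log2 4.33 ± 0.358, limma adjusted p = 0.00114). Its adhesive subunit AGA2 went from 2.93 to 18.8 and 12.4 (log2 2.36 ± 0.343, limma adjusted p = 0.0255). MFA1 went from 5.33 and 7.52 to 40.8 and 39.9 (log2 2.66 ± 0.320, limma adjusted p = 0.00555). ASG7 and STE2, given above, were the other a-cell genes that rose. All 5 showed no overlap between the groups, as did every gene called. MFA2, the second a-factor gene, measured 10.2 and 9 against 25.3 and 14.8 (log2 1.01, limma adjusted p = 0.158). The a-factor exporter STE6 measured 4.74 against 7.16 and 7.66 (log2 0.64, limma adjusted p = 0.373). The processing enzymes RAM1, AXL1, STE24 and STE14 had changes between -1.33 and -0.09, without a call.

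Other large rises lay outside the mating lists. YIL082W-A had an RNA signal of 0.415 and 0.764 in the asynchronous libraries and 67.6 and 60.4 in the arrested libraries, the largest log2 change of the comparison (6.66 ± 0.587, limma adjusted p = 0.00114). YGR109W-B went from 0.0662 and 0.0985 to 4.52 and 3.02 (log2 4.69 ± 0.617, limma adjusted p = 0.00772), and YGR109W-A, which starts at the same base and lies inside it, was at 0 in both asynchronous libraries and at 1.73 and 0.467 in arrest. The annotation used gives these open reading frames no name, and whether they share reads with each other was not tested. IME4, known as the mRNA methyltransferase gene of meiosis, was listed at 0 in both asynchronous libraries and at 0.731 and 1.71 in arrest (limma adjusted p = 0.0217). NFG1 and TMA10 were listed at 0 in their asynchronous library and at 1.38 and 0.976, and 2.02 and 1.40, in arrest (limma adjusted p = 0.0144 and 0.00495). VID28, a subunit of the ubiquitin ligase that degrades gluconeogenic enzymes, is named here after its values were seen because it lies 2 genes from BAR1, past SNL1. It went from 2.07 to 16.8 and 19.6 (log2 3.09 ± 0.402, limma adjusted p = 0.0167).

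Every core histone gene was lower in arrest, and 6 of the 10 measured members of the list, which includes the linker HHO1 and the variant HTZ1, fell. The median change was -2.46, and in all 10 both arrested libraries lay below the asynchronous ones, as they did in 40.7% of all genes tested. Only 4 of the 10 are Watson genes, with 2 asynchronous libraries. HTB2 went from 3.38 and 3.33 to 0 and 0.360 (log2 -4.37 ± 0.861, limma adjusted p = 0.0415). HTA2, the gene beside it in the same divergent pair, went from 6.44 to 0.280 and 0.345 (log2 -4.11 ± 0.426, limma adjusted p = 0.00738). HHF2 went from 5.32 and 4.84 to 0.373 and 0.710 (log2 -3.14 ± 0.311, limma adjusted p = 0.00236). HTA1, HTB1 and HHT1 fell by 2.50, 2.10 and 2.00 on the log2 scale (limma adjusted p = 0.0172, 0.0471 and 0.00686). The other members, HHF1, HHT2, HHO1 and HTZ1, are Crick genes with changes of -2.43, -1.51, -2.66 and -1.42 and adjusted p values from 0.0711 to 0.369 in limma.

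The cyclins of Start fell while the upstream cyclin CLN3 did not. Of 15 measured genes of G1 cyclins and Start, 3 fell and 0 rose, with a median of -1.03. CLN1 went from 0.693 and 0.872 to 0.0339 and 0.0418 (log2 -3.04 ± 0.409, limma adjusted p = 0.00854). CLN2 went from 1.91 to 0.187 and 0.219 (log2 -2.89 ± 0.458, limma adjusted p = 0.0347), and PCL1, a cyclin of the kinase Pho85, from 0.836 and 0.664 to 0 and 0.0812 (log2 -3.07 ± 0.496, limma adjusted p = 0.0181). The arrested libraries held almost no RNA of these 3 cyclins. CLN3, the cyclin that starts the G1 programme, measured 1.91 against 5.11 and 3.54 (log2 1.13, limma adjusted p = 0.228). PCL2, another Pho85 cyclin, measured 0.0978 in both asynchronous libraries and 1.03 and 1.75 in arrest (log2 3.12, limma adjusted p = 0.0907). WHI5, the repressor of Start, measured 1.03 and 1.20 against 0.220 and 0.406 (log2 -1.68, limma adjusted p = 0.0828).

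Genes of the G1/S wave followed the cyclins in part: 4 of 28 measured replication genes fell, 0 rose and the median was -0.85. RNR1, the large subunit of ribonucleotide reductase, went from 2.36 and 2.81 to 0.183 and 0.315 (log2 -3.11 ± 0.323, limma adjusted p = 0.00279). MCD1, the kleisin subunit of cohesin, went from 1.49 and 0.994 to 0.110 and 0.122 (log2 -2.83 ± 0.400, limma adjusted p = 0.0107). RAD27, the flap endonuclease, and RFA2, a subunit of the single-strand binding protein, fell by 2.17 and 1.46 on the log2 scale (limma adjusted p = 0.0362 and 0.0448). Of the 28 genes, 25 had a negative change, and so had 3265 of all 5399 genes tested. Among 14 genes that license origins in early G1, 0 passed the test in either direction and 13 had a negative change, with a median of -0.67. YHP1 and YOX1, homeodomain repressors of M/G1 genes, were at 0.873 and at 0.573 and 0.730 in the asynchronous libraries and at 0 in both arrested libraries (limma adjusted p = 0.0471 and 0.00486); YOX1 is named after its values were seen.

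The CLB2 cluster was lower in arrest in 27 of 29 measured members, against 3265 of all 5399 genes tested. Of its members 6 fell and 0 rose, with a median of -1.43. CLB2, the main mitotic cyclin, went from 1.35 and 1.80 to 0.112 and 0.0460 (log2 -3.54 ± 0.370, limma adjusted p = 0.00279). CLB1, its paralog, went from 1.32 and 0.835 to 0.080 and 0.148 (log2 -2.67 ± 0.383, limma adjusted p = 0.0112). MRH1, a plasma membrane protein, went from 6.69 and 5.97 to 0.735 and 0.363 (log2 -3.45 ± 0.455, limma adjusted p = 0.00772). These libraries show the mitotic cyclin RNA nearly gone in arrest, with no overlap between groups, as in every gene called. HOF1, a protein of the cytokinetic ring, was at 0.511 and 0.295 in the asynchronous libraries and listed at 0 in both arrested libraries (limma adjusted p = 0.0248). CHS2, the chitin synthase of the septum, and HST3, a histone deacetylase, fell by 1.98 and 1.78 on the log2 scale (limma adjusted p = 0.0448 and 0.0467). FKH1 and FKH2, the Forkhead genes themselves, measured 0.621 against 0.116 and 0.286, and 0.628 against 0.230 and 0.159, with changes of -1.45 and -1.43 and no call. DBF2 and SPO12, of the mitotic exit pathways, were the exceptions with positive changes of 0.56 and 1.20, also without a call.

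The daughter-specific separation genes contained the deepest fall, that of EGT2. Of 19 measured genes of daughter-cell separation and the M/G1 boundary, 7 fell and 1 rose, and the median was -2.21. EGT2, a cell wall protein of separation, went from 4.44 and 5.19 to 0.163 and 0.0223, a 52.1-fold lower mean (log2 -5.12 ± 0.442, limma adjusted p = 0.00114). CTS1, the chitinase that cuts the septum, went from 7.22 to 0.385 and 0.325 (log2 -4.12 ± 0.462, limma adjusted p = 0.0097). DSE2 and DSE4, the latter a glucanase, fell by 3.56 and 4.08 on the log2 scale (limma adjusted p = 0.00272 and 0.0275). CIS3, a cell wall mannoprotein, went from 17.6 to 0.587 and 1.32 (log2 -4.22 ± 0.569, limma adjusted p = 0.0181). The remaining falls of the list were SUN4 (log2 -3.46) and DSE3 (log2 -3.27). Outside the lists, large falls included those of TOS6, a predicted cell wall protein, from 3.26 and 4.72 to 0 and 0.230 (limma adjusted p = 0.0241), and PHM6, regulated by phosphate, from 8.42 to 0.560 and 0.230 (limma adjusted p = 0.0241). AIM20 was at 1.10 and 0.839 in the asynchronous libraries and listed at 0 in both arrested ones (limma adjusted p = 0.00154). PIR3, a wall protein of the same family as CIS3, was the list member that rose, from 0.176 and 0.282 to 1.37 and 1.84 (log2 2.52 ± 0.370, limma adjusted p = 0.012). ASH1, a repressor of mating-type switching, and RME1, a repressor of meiosis, measured 1.01 and 1.10 against 0.762 and 0.401, and 2.40 against 1.10 and 1.17, without a call.

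Of 24 measured spindle and kinetochore genes, 1 fell and 0 rose, with a median of -0.81, where 1.32% of all genes tested fell. SPC97, of the γ-tubulin complex, went from 0.323 and 0.309 to 0.0229 and 0 (log2 -2.35 ± 0.436, limma adjusted p = 0.0347). The tubulin genes differed among themselves. TUB1 measured 6.09 against 2.02 and 2.15 (log2 -1.52, limma adjusted p = 0.0652), while TUB3, the minor α-tubulin, measured 4.61 against 4.47 and 5.11 (log2 0.05).

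At the cell wall, 1 of 27 measured members rose, 2 fell and the median was 0.11. GSC2, the alternative catalytic subunit of glucan synthase, went from 0.519 and 0.475 to 1.78 and 3.25 (log2 2.14 ± 0.428, limma adjusted p = 0.0448). Its housekeeping paralog FKS1 measured 16.5 and 15.3 against 12.3 and 13.2 (log2 -0.32, limma adjusted p = 0.410). GAS1, a glucan-elongating enzyme, went from 18.0 and 21.1 to 5.46 and 5.25 (log2 -1.85 ± 0.198, limma adjusted p = 0.00309), and UTR2, a chitin transglycosylase, fell by 1.68 (limma adjusted p = 0.0347). SLT2, the MAP kinase of wall integrity, measured 1.42 against 3.60 and 2.58 (log2 1.07, limma adjusted p = 0.189). Of 12 filamentous growth genes, which share Ste12 with mating, CLN1 alone passed the test. Several plasma membrane genes, named after their values were seen, also fell. PMA1, the proton pump, went from 99.8 to 35.9 and 28.7 (log2 -1.63 ± 0.265, limma adjusted p = 0.036). The eisosome genes NCE102, SUR7 and PIL1 fell by 3.09, 2.28 and 1.56 on the log2 scale (limma adjusted p = 0.00309, 0.036 and 0.0492), whereas LSP1, a paralog of PIL1, measured 3.13 against 2.43 and 3.20.

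**Figure D4:**
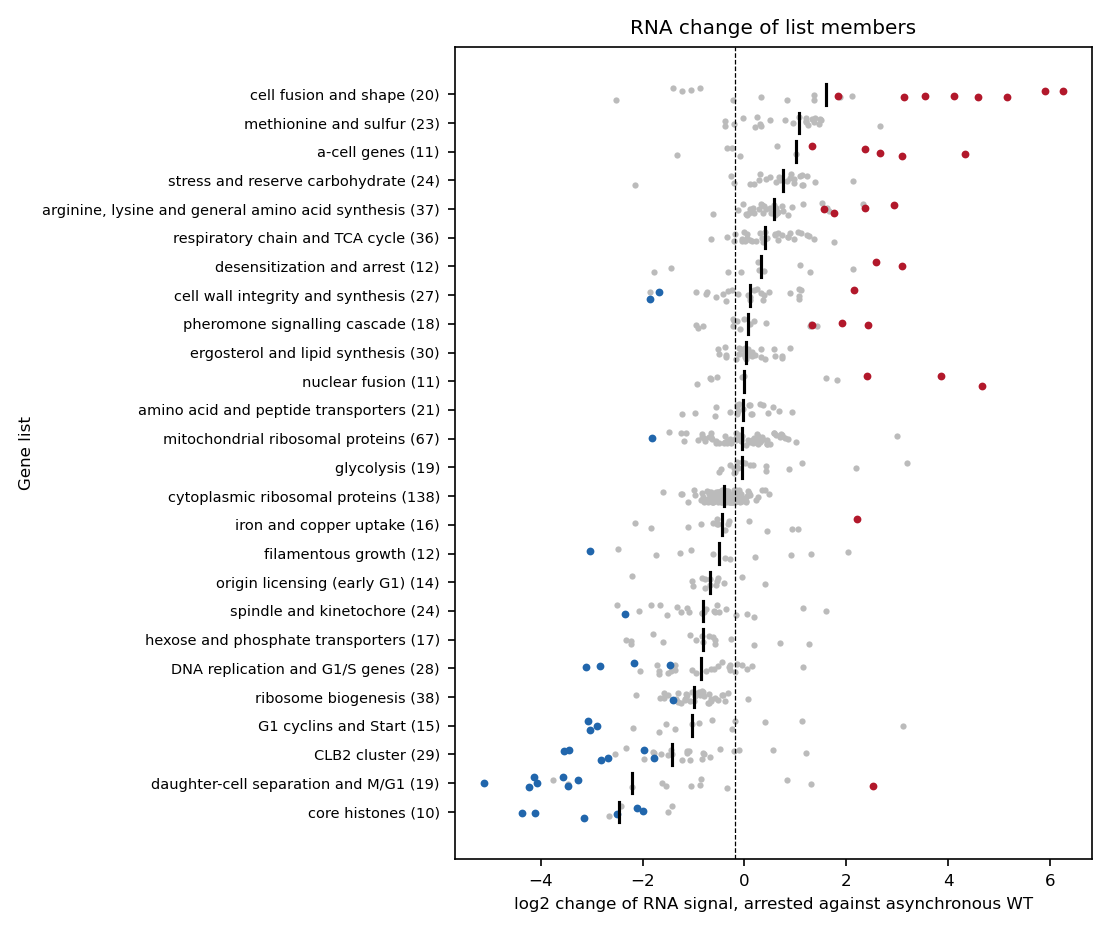
Log2 change of RNA signal in arrested against asynchronous WT for the tested members of each gene list with at least 10 of them, with the number tested in brackets. Red points rose, blue points fell, grey points did not pass the test, black bars are list medians and the dashed line is the median of all genes tested, -0.18; medians run from 1.60 for cell fusion and shape to -2.46 for core histones.

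Among biosynthetic genes, the arginine and general amino acid list had 4 rises and 0 falls among 37 measured members, with a median of 0.58. ARG3 and ARG1, enzymes of arginine synthesis, went from 0.132 and 0.220 to 1.55 and 1.96 and from 4.58 and 9.03 to 25.2 and 43.8 (log2 2.94 and 2.36, limma adjusted p = 0.0277 and 0.0291). ARG4 and HIS5 rose by 1.76 and 1.56 (limma adjusted p = 0.0398 and 0.0461). The arrested libraries differed from each other in these pathways. Arrested replicate 2 was above replicate 1 in 29 of the 37 genes, by a median of 0.43 on the log2 scale, and the list's median against the asynchronous libraries was 0.25 for replicate 1 and 0.77 for replicate 2. In methionine and sulfur genes it was above in 22 of 23, by a median of 0.88, against -0.05 over all genes tested. There 0 of 23 passed the test, and the median change of 1.06 was 0.12 with arrested replicate 1 alone and 1.65 with arrested replicate 2 alone. In ribosome biogenesis genes arrested replicate 2 was below replicate 1 in 35 of 38, by a median of 0.92 in size. Ribosome biogenesis had 1 fall among 38, the helicase gene MAK5 (log2 -1.41, limma adjusted p = 0.0448), where 1.32% of all genes tested fell. Of the list 37 had a negative change, against 3265 of all 5399 genes tested, and its median was -0.99. Set against the asynchronous libraries, that median was -0.51 for arrested replicate 1 and -1.45 for arrested replicate 2. How far the difference between the arrested libraries bears on these lists was not tested further.

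Other metabolic lists held few or no calls. Cytoplasmic ribosomal protein genes had 0 calls among 138 and a median of -0.40. Negative changes were found in 126 of them, against 3265 of all 5399 genes tested. Respiratory genes had 0 calls among 36 with a median of 0.40, and stress and reserve carbohydrate genes 0 among 24 with a median of 0.76 (0.53 and 0.90 with arrested replicates 1 and 2 taken alone). Glycolysis had 0 calls among 19 and a median of -0.05; within it HXK1, a hexokinase gene, measured 0.762 against 5.17 and 10.8 (log2 3.19, limma adjusted p = 0.0753). Hexose and phosphate transporters had 0 calls among 17 with a median of -0.82 (-0.50 and -1.03 with arrested replicates 1 and 2 taken alone), and amino acid transporters 0 among 21 with -0.03. Among iron genes HMX1, a haem oxygenase, rose by 2.20 (limma adjusted p = 0.0467) and 15 others did not pass the test. Ergosterol genes had 0 calls among 30 with a median of 0.03, and mitochondrial ribosomal proteins 1 among 67, RSM27, with a median of -0.04. RSM27 fell, as did 1.32% of all genes tested.

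RNA polymerase II was measured over the same genes by chromatin immunoprecipitation of its subunit Rpb3. The labels do not say that these libraries came from the RNA cultures. Asynchronous Rpb3 replicate 1 stood apart: over genes its log2 signal correlated at r = 0.672 with asynchronous replicate 2 and at 0.675 and 0.631 with the arrested libraries, whereas replicate 2 correlated with the arrested libraries at 0.880 and 0.868. Cytoplasmic ribosomal protein genes were higher in asynchronous replicate 2 than in replicate 1 in 136 of 137, by a median of 2.29 on the log2 scale, against 0.00 over all genes. By Rpb3, 130 genes rose (2.41%) and 72 fell (1.33%) in WT arrest, counts that ran from 19 to 1053 and from 11 to 1117 when single WT libraries were left out. Of all genes tested by RNA, 5157 were also tested by Rpb3, of which 2341 were higher in arrest and 2816 lower. Of the 46 genes whose RNA rose, 44 were tested by Rpb3, and 40 of these were higher by Rpb3. By the test 22 rose by Rpb3, which is 47.8% of the RNA list and 16.9% of the Rpb3 list. Of the 71 whose RNA fell, 70 were tested by Rpb3, 63 were lower and 29 fell, which is 40.8% and 40.3% of the lists. Leaving out 1 WT Rpb3 library at a time gave 12 to 34 such rises and 7 to 45 such falls, the fewest without arrested replicate 2. Against asynchronous replicate 1 alone, 30 of the 44 RNA rises were higher and 56 of the 70 RNA falls lower by Rpb3. Against asynchronous replicate 2 alone these were 41 and 67. Over all 5157 genes, 2401 were higher and 2756 lower against replicate 1, and 2107 and 3050 against replicate 2. The median Rpb3 change was 0.83 for the RNA rises and -0.64 for the RNA falls. The RNA medians were 2.62 and -2.39, from the values that chose these genes. The 2 signals also differ in scale, with 5.4% to 5.5% of WT Rpb3 bins at 0, so the sizes were not compared. FIG2 and AGA1 had Rpb3 changes of 4.42 and 4.04, and EGT2 and HTB2 of -2.43 and -2.29 (limma adjusted p = 0.00141, 0.00151, 0.00151 and 0.00366). HTB2 did not pass without arrested Rpb3 replicate 2 (limma adjusted p = 0.0702).

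Some genes without an RNA call passed the test by Rpb3. STE12 had an Rpb3 change of 1.14 (limma adjusted p = 0.0242), FAR1 of 1.53 (0.0393), CIK1 of 1.95 (0.0066) and KAR3 of 1.01 (0.0112), and outside the mating lists the cyclin gene PCL2 of 2.03 (0.00716). Without arrested Rpb3 replicate 2 none of these 5 passed, with limma adjusted p of 0.181, 0.275, 0.0702, 0.112 and 0.0845, and without arrested replicate 1 STE12, FAR1 and KAR3 did not, with 0.0604, 0.222 and 0.0585. Of all genes tested by Rpb3, 2.41% rose and 1.33% fell. In the fusion list 12 of 18 genes rose by Rpb3, and in the core histone list 9 of 10 fell. Without arrested replicate 2 these counts were 6 and 1, and without arrested replicate 1 they were 11 and 3.

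The Rpb3 direction of the growth and metabolic lists depended on which asynchronous library it was set against. Ribosome biogenesis genes were higher in arrest than asynchronous replicate 1 in 38 of 38, with a median of 0.74, and lower than asynchronous replicate 2 in 35 of 38, with a median of -0.17. Cytoplasmic ribosomal protein genes were higher than replicate 1 in 136 of 137 and lower than replicate 2 in 126 of 137, with medians of 2.00 and -0.36. Methionine genes were lower than replicate 1 in 23 of 23 and higher than replicate 2 in 19 of 23, with medians of -1.11 and 0.16. Stress genes had medians of -1.59 against replicate 1 and -0.03 against replicate 2. The fusion and core histone lists kept their direction against either library, with medians of 1.60 and 1.59 for fusion and -2.28 and -1.69 for histones.

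**Figure D5:**
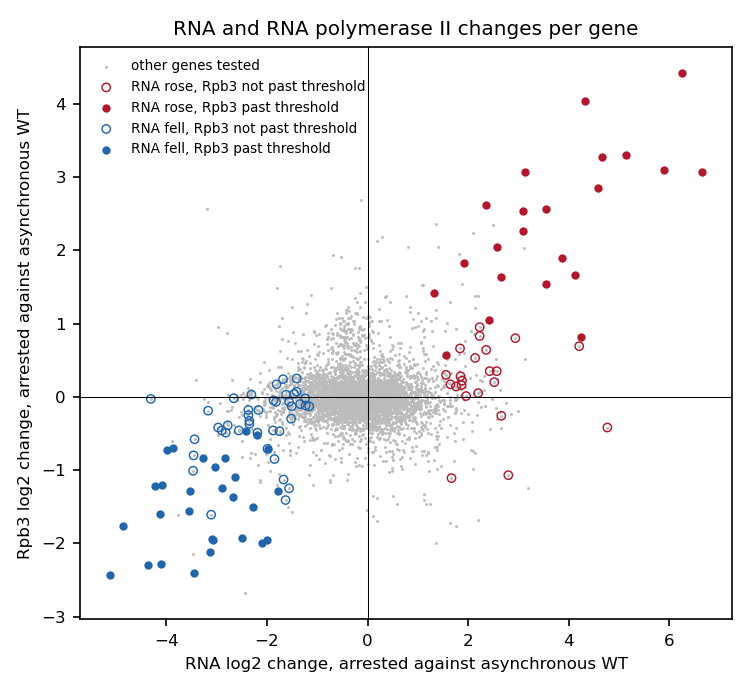
Log2 change of Rpb3 signal (vertical) against log2 change of RNA signal (horizontal), arrested against asynchronous WT, 1 point per gene tested in both. Red and blue mark genes whose RNA rose or fell, filled where Rpb3 passed the test in that gene. On the vertical axis 40 of 44 red points lie above 0 and 63 of 70 blue points lie below 0. Of all 5157 genes, 2341 lie above 0 and 2816 below.

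The libraries labelled fkh1Δfkh2Δ2C were checked at the genes their label names. Their strain entry reads fkh1Δfkh2Δ2C, while their titles read fkh1Δfkh1Δ2C. The labels leave 2C unexplained. FKH1 was at 0 in the asynchronous library and in both arrested libraries of that label. FKH2 was at 1.26 in the asynchronous library and at 0.579 and 1.34 in the arrested libraries, against 0.628 and 0.230 and 0.159 in WT. FKH1 RNA was thus not detected and FKH2 signal was present, so no statement is made here on which Forkhead product these cells lack. Their response to the same arrest was set beside that of WT.

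Among the libraries labelled fkh1Δfkh2Δ2C, 24 genes rose (0.445%) and 13 fell (0.241%). Of the 46 WT rises, 45 had a positive change there and 23 rose, which is 50% of the WT list and 95.8% of the list from that strain. Of the 71 WT falls, 69 had a negative change and 11 fell, which is 15.5% and 84.6%. Both strains were tested in 1 fit that shares the spread of each gene, so their calls are not independent. The median changes of the 2 WT lists were 2.62 and -2.39 in WT, the values that chose them, and 2.19 and -1.33 in the other strain. Over all genes tested the median change was -0.18 in WT and -0.16 in the other strain, so negative changes were the more common in both. The share of all genes with each sign in the other strain is not given here as a base for the sign counts. The difference between the responses passed the limma adjusted threshold in 0 genes and had an unadjusted p below 0.05 in 220 (4.07%). Without the filter on low genes, 38 genes passed.

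CLB2 had the smallest p value for that difference. In WT its signal was 1.35 and 1.80 before and 0.112 and 0.0460 in arrest, and in the libraries labelled fkh1Δfkh2Δ2C 1.14 and 1.65 before and 1.23 and 1.66 in arrest. The latter thus overlapped between stages and lay far above arrested WT. The responses differed by 3.60 on the log2 scale (unadjusted p = 8.67e-05, limma adjusted p = 0.309), which did not pass the threshold. Of the 29 CLB2 cluster genes 0 fell in the other strain, where 0.241% of all genes tested did. Over the CLB2 cluster the median change was -1.43 in WT and -0.12 in the other strain. Over the daughter-separation genes it was -2.21 and -0.72, over the core histones -2.46 and -1.84, and over the fusion genes 1.60 and 1.91. PIR3 changed by 2.52 in WT and 0.12 in the other strain, a difference of -2.39 in the response (limma adjusted p = 0.999). The largest differences by size belonged to low genes. PLS1, COX14 and COX19 had 0 in the asynchronous fkh1Δfkh2Δ2C library (differences of 5.98, 5.94 and 5.43), and YDR524W-C, YER145C-A and AAD15 had 0 in every asynchronous WT library (differences of -4.30, -4.23 and -4.05). None of these 6 passed the threshold, with limma adjusted p of 0.309 for COX14 and 0.999 for the others.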

How the data were processed

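RNA and Rpb3 immunoprecipitation were each measured in 8 libraries, 2 per strain and stage. The deposited values are the authors' normalized signal per 50 bp bin, one column per library and strand for RNA. No source used here gives the normalization, aligner or build. Depth is unknown. RNA was isolated with RiboPure and ribosomal RNA removed with Ribominus, per the labels' protocols. 2 RNA columns that carry 1 name were not used. RefSeq R64 genes were placed on the bins by a shift fitted to strand; 96.1% moved by at most 50 bp, and 94.2% held most signal on their own strand. Genes needed 2 bins, and the lowest 10% by mean signal were left out.

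Group differences were tested by limma 3.58.1 in R 4.3.3 on log2(signal + pseudocount), with a pseudocount of 10% of the median gene (0.0643 for RNA, 4.02 for Rpb3), over all 8 libraries of an assay, 2-sided, calling genes whose Benjamini-Hochberg adjusted p was below 0.05. Where asynchronous replicate 1 lacks a value, the fit drops it. The method was tested on simulated data. The antisense fit failed its test on simulated data and is not reported. Promoter motifs were not analysed here. Named genes are the 12 largest rises and falls past the threshold whose libraries do not overlap, up to 4 called members of each list with the largest change, the 3 largest strain differences in each direction, and STE2, BAR1, FAR1, STE12, KAR4 and CIK1; further list members are named to show the rest of their list and were chosen after their values were seen. The members and the gene lists were chosen with earlier results of these data known.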

Additional observations from a re-analysis of the deposited data

How the results depend on the processing

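Against 46 rises and 71 falls, leaving out each WT library in turn gave 3 to 28 rises and 8 to 22 falls, and fitting the WT libraries alone gave 5 and 0. Without a filter on low genes there were 20 rises, with the median in place of the mean of bins 174 falls, and with Watson genes alone 111 falls; the cause was not tested. Other pseudocounts, a stricter filter, median centring, no variance trend and unshifted gene positions left both counts within 1.5 times, and median centring gave 55 rises and 60 falls. All 117 genes kept their sign in these settings wherever they were tested, except that 61 of 68 falls did so with the median of bins. Their calls held less well. Without the filter 17 of the 46 rises and 31 of the 71 falls were still called. With the median of bins 23 of 46 and 35 of 68 were, and with no variance trend 27 of 46 and 50 of 71. The stricter filter kept all 46 rises and all 67 falls that it tested. The strain difference gave 38 genes without the filter and 0 in the other fits. Rpb3 counts ran from 19 to 1053 rises and from 11 to 1117 falls over the left-out libraries. With the replicate block the RNA fit gave 81 rises and 101 falls and the Rpb3 fit 114 and 64. Same-numbered deviations in WT correlated at r = 0.0319 over 2715 Watson genes for RNA and at 0.187 for Rpb3. These values do not settle whether libraries of the same number are paired. Low genes rest on few bins, since the lowest value above 0 in a WT bin is 0.88 to 1.38.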
